A study of Homo sapiens with 6 samples.

Results

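The genes of 24 collagen chains and of 24 other matrix proteins, among them laminin chains, nidogens, fibrillins, thrombospondin-1 and lysyl oxidases, were followed in HaCaT cells, an immortalized line of human epidermal keratinocytes. They were taken from the deposited count table by name: all genes called COL, a number, A and a number, without the hemidesmosome gene COL17A1, plus 25 named laminin, basement membrane, microfibril and cross-linking genes. Of 68 rows that matched, 48 had a summed count of at least 15 over the 6 libraries and are described here, out of 46287 rows in the table. The 20 below that sum included THBS2 with 12 counts, COL21A1 with 9 and COL8A1 with 6, and the lowest above it were COL6A6 with 24, COL9A2 with 30 and NPNT with 34.

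Knockout and control cells gave 3 libraries each. The knockout libraries came from SDR42E1-knockout cells, labelled homozygous and made with CRISPR/Cas9, and the control libraries from wild-type cells. SDR42E1 is a gene of the short-chain dehydrogenase/reductase family that the study connects with vitamin D. Both groups were grown in the same serum-containing, high-glucose medium and harvested before confluence. Replicates are described as biological, with no word on separate cultures or on whether the knockout was 1 clone, and p-values therefore speak only of the spread among these 6 libraries.

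Collagens are trimers of alpha chains. Fibrillar collagens bear tension in the dermis, type IV collagen forms the sheet of the basement membrane, and type VII collagen anchors that sheet to the dermis. Laminins are crosses of an alpha, a beta and a gamma chain that cells bind through integrins; keratinocytes chiefly lay down laminin-332, with laminin-511 beside it in the epidermal basement membrane. Nidogens, perlecan and agrin link the laminin and collagen IV networks, and lysyl oxidases cross-link collagen and elastin.

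The knockout libraries held 11504473 to 13454544 counts and the control libraries 12094896 to 16928201. SDR42E1 RNA was 23.2, 20.1 and 20.7 CPM in knockout libraries and 46.8, 47.6 and 48.8 CPM in control libraries, a log2 fold change of -1.16 (SE 0.08), so it was lower but present; CPM is the count divided by the TMM-adjusted library size and expressed per 1e6 counts. Keratinocyte markers were expressed: 16 of 16 had counts, with a summed level of 14173 to 14750 CPM in knockout and 12174 to 13023 CPM in control libraries. Of these 16, 9 were called higher, 3 lower and 4 did not pass, beside 24.6% higher and 25.8% lower of all genes. Matrix genes are also fibroblast genes, but the 12 fibroblast markers summed to 0.778 to 1.57 CPM in knockout and 1.22 to 1.87 CPM in control libraries, and PDGFRA, DCN, PRRX1 and DPT were at 0 in all 6. The 7 melanocyte markers summed to 19.5 to 23.7 CPM in knockout and 24.3 to 25.2 CPM in control libraries (TYR at 0), the 7 endothelial markers to 1.92 to 2.89 CPM in knockout and 3.65 to 4.28 CPM in control libraries, and the 6 leukocyte markers to 0.262 to 1.73 CPM in knockout and 0.812 to 1.45 CPM in control libraries (CD3E and TYROBP among those at 0). The 5 simple epithelium markers summed to 5103 to 5584 CPM in knockout and 5027 to 5082 CPM in control libraries, with 4 called higher and 1 lower. The part of these cell types in the matrix results was not tested. In bulk RNA, fewer cells of a type and less RNA per cell cannot be told apart.

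Promoter sequences of 39 of the 48 genes were found in RefSeq (GRCh38.p14), as the 250 bases before the annotated start, and 4 stretches are shown for the genes the results turn on. COL4A1 and COL4A2 encode both chains of the common collagen IV and are transcribed away from each other. The first sequence is all 126 bases between their starts, chr13:110307158-110307283, on the plus strand, in which capitals mark a CCAAT box. These starts are those of RefSeq. In the GENCODE annotation the 2 genes overlap, with starts 1421 bases apart. THBS1 (chr15:39580829-39581078, plus strand) was the most abundant gene and rose, and capitals mark GGAATG or its complement, the core bound by TEAD factors. ECM1 (chr1:150507859-150508108, plus strand) had the largest rise of the 5, and capitals mark TGANTCA, where N is any base, a looser pattern than the AP-1 element. That element has C or G at N, as the second marked stretch does and the first does not. LAMB1 (chr7:108003162-108003411, minus strand) fell most among the laminin chains, and capitals mark the GC box GGGCGG or its complement, with the last pair overlapping. Each stretch has only 1 motif marked. Left unmarked are 1 CCAAT and 4 GGGCGG matches in THBS1, and GGGCGG in ECM1 and in the first sequence.
COL4A1-COL4A2: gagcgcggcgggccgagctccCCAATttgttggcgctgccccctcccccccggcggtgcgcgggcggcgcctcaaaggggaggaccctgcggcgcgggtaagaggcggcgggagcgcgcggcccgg
THBS1: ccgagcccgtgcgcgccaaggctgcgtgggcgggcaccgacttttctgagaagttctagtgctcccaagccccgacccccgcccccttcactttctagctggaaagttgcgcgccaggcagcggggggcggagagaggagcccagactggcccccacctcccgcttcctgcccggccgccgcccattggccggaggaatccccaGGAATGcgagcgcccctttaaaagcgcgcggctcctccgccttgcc
ECM1: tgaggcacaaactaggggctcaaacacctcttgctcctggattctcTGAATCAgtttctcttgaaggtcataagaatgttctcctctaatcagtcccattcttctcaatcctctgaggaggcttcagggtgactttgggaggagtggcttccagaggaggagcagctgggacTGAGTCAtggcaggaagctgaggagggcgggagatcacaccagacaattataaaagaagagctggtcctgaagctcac
LAMB1: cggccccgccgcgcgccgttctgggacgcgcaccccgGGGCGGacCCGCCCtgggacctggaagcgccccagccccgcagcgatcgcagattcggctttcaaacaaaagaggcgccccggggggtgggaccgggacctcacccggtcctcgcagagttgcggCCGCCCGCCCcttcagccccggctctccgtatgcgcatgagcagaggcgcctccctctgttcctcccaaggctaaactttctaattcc

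Searched on both strands, TGANTCA was in 6.60% of all 27305 promoter windows of 250 bases, GGAATG in 11.9%, CCAAT in 33.0% and GGGCGG in 42.3%. Windows were found for 21 of the genes that fell and for all 5 that rose. TGANTCA stood in 0 of the 21 and in 1 of the 5, ECM1, which holds it at 2 places. GGAATG stood in 2 of the 21 (COL12A1 and FBN1) and in 1 of the 5 (THBS1), CCAAT in 8 of the 21 and 1 of the 5, and GGGCGG in 15 of the 21 and 4 of the 5. These are matches of letters and not shown to be bound, and the motifs were chosen after the gene results were known.

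Most of these matrix genes were lower in the knockout cells. Of 42 that passed the filter on low counts, 27 were lower and 5 higher past an adjusted p of 0.05 in edgeR's quasi-likelihood test, and 10 did not pass. Over all 12293 genes tested, 25.8% were called lower and 24.6% higher, or 50.4% in either direction. The median log2 fold change, knockout over control, was -0.63 over the 42 genes and 0.00 over all genes tested. A fall of at least 2-fold was called in 12 of the 42, against 5.23% of all genes, and a rise of that size in 3, against 1.91%. In 28 of the 42 every knockout library lay below every control library, against 29.0% of all genes, and in 5 every one lay above, against 27.5%.

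The lean was present among abundant genes. Among scarce genes the count rests mostly on genes that the filter on low counts let in through their control libraries alone, so no lean is read from it. Among the 28 genes averaging a log2 CPM of 2 or more, 20 were lower and 4 higher, beside 25.7% and 27.1% of all genes in that range. Among the 14 under that level, 7 were lower and 1 higher, beside 26.5% and 8.08%. Of these lowered genes, FREM2, COL3A1, COL4A4, COL5A1 and COL5A2 passed the filter only because of their control libraries, which favours a lower call. They are also among the falls of at least 2-fold counted above. At a mean log2 CPM of 2 or more, such falls were called in 6 of 28 matrix genes and in 306 of all 10660 genes. Under that level they were called in 6 of 14 matrix genes and in 337 of all 1633 genes. The raised gene, COL13A1, passed only because of its knockout libraries. Summed, the 48 genes took 0.458%, 0.498% and 0.5004% of all counts in knockout libraries and 0.416%, 0.395% and 0.395% in control libraries, a sum in which THBS1 alone took 0.249% ± 0.0172 in knockout and 0.109% ± 0.0167 in control libraries (SD, n = 3 each). Without THBS1 the sum was 0.237% ± 0.00687 in knockout and 0.293% ± 0.00428 in control libraries, and the 24 collagens alone took 0.0744% ± 0.00281 in knockout and 0.103% ± 0.00139 in control libraries (SD, n = 3 each).

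**Figure D1:**
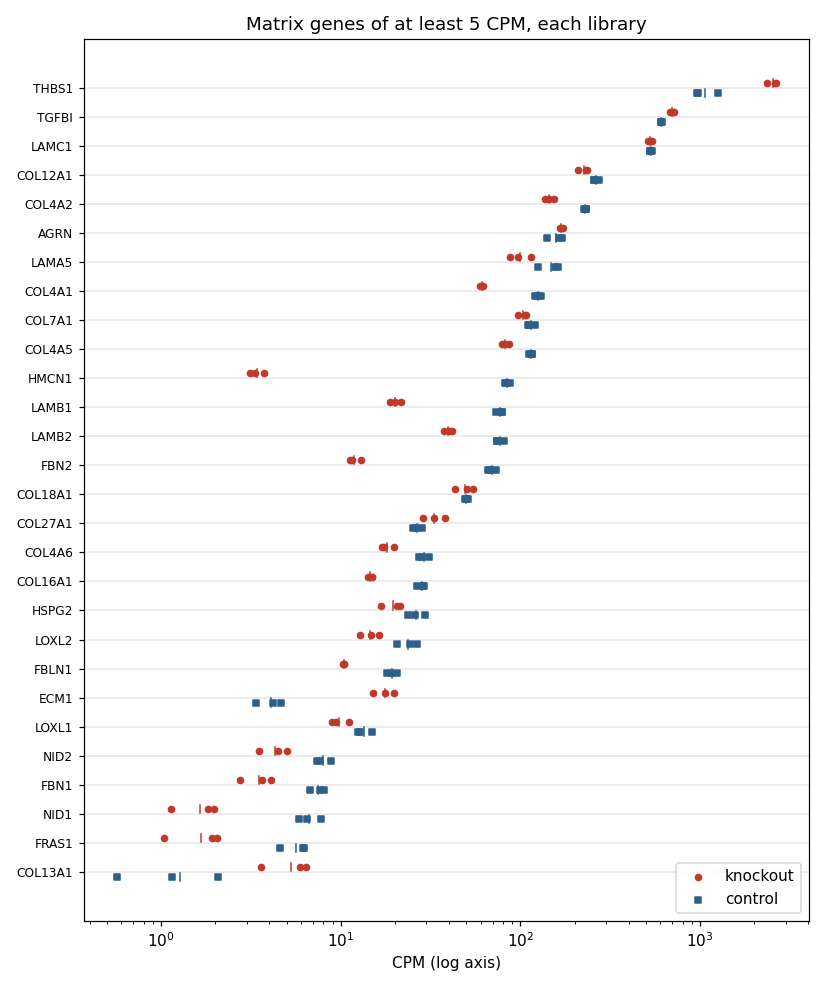
CPM (log axis) of the 28 matrix genes with a mean of at least 5 CPM in either group, in each of the 3 knockout and 3 control libraries, with a tick at each group's mean. HMCN1, FBN2, NID1 and LAMB1 lie well to the left in knockout, and THBS1 and ECM1 lie further right in knockout than in control.

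**Figure D2:**
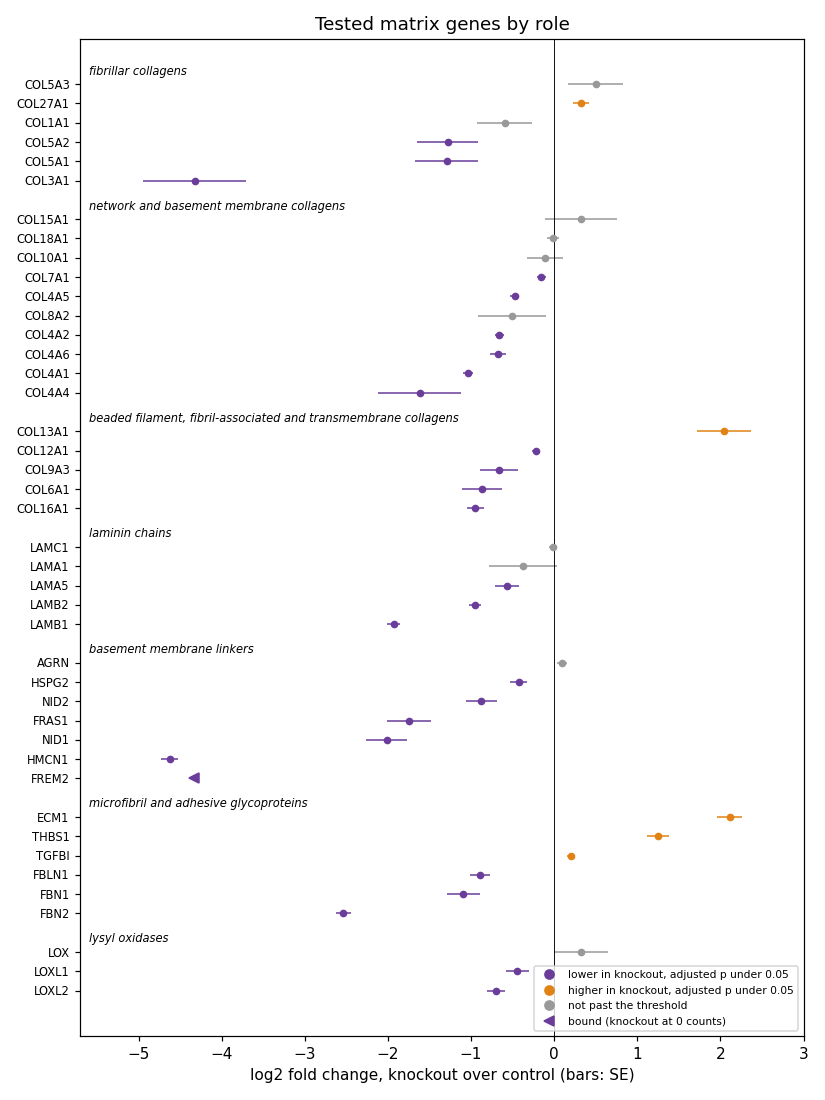
Log2 fold changes (knockout over control, bars are SE) of the 42 tested matrix genes, grouped by role, with purple for the 27 called lower, orange for the 5 called higher and grey for the 10 that did not pass. FREM2, at 0 counts in the knockout, is drawn at its bound.

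Among fibrillar collagens, most of which averaged under 3 CPM here, 3 of 6 tested genes fell, 1 rose and 2 did not pass. The 3 that fell, COL3A1, COL5A1 and COL5A2, passed the filter on low counts only because of their control libraries, which favours a lower call. Over all genes tested, 25.8% were called lower and 24.6% higher. COL3A1, the chain of type III collagen, had 0, 0 and 4 counts in knockout libraries and 31, 56 and 20 in control libraries. Its log2 fold change was -4.33 (SE 0.62, adjusted p = 1.01e-06, edgeR), and all of the knockout counts came from replicate 3; without that library the fall was at least 20.3-fold, taking 3 counts over the remaining knockout libraries as the floor, and without knockout replicate 2 the log2 fold change was -3.71. COL5A1 and COL5A2, the chains of type V collagen, which starts fibrils, fell by 1.29 (SE 0.38) and 1.28 (SE 0.37) on the log2 scale, with control means of 1.90 and 2.25 CPM.

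COL27A1, a fibrillar collagen of cartilage, was the most abundant of this class, at 28.8, 37.8 and 33.1 CPM in knockout libraries and 26.3, 28.2 and 25.1 CPM in control libraries. It rose by 0.32 (SE 0.09, adjusted p = 0.00404, edgeR), with a narrow gap between the groups, and did not pass without knockout replicate 2 (log2 0.22, adjusted p = 0.0752). COL1A1, the main chain of type I collagen, had 1.12, 1.52 and 1.49 CPM in knockout and 1.87, 2.20 and 2.19 CPM in control libraries and did not pass (log2 fold change -0.59, adjusted p = 0.133, edgeR). COL5A3 did not pass either (0.50, SE 0.33; 0.92 and adjusted p = 0.0452 without control replicate 3).

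Type IV collagen, the sheet-forming collagen, was lower in every chain with enough counts to test. COL4A1 had 60.9, 62.2 and 59.6 CPM in knockout libraries, against 130.5, 125 and 121 CPM in control libraries. It changed by -1.04 (SE 0.06, adjusted p = 1.48e-17, edgeR). COL4A2, its partner chain, had 145, 154 and 137 CPM in knockout libraries, against 226, 231 and 231 CPM in control libraries, a log2 fold change of -0.66 (SE 0.05, adjusted p = 1.04e-13). Neither gene's groups overlapped, and both neighbours of the shared promoter fell, but by different amounts.

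COL4A5 and COL4A6, the chains that form the alpha5-alpha6 type IV network of skin basement membrane, are likewise neighbours on opposite strands, on chromosome X. COL4A5 averaged 82.5 ± 3.52 CPM in knockout and 115 ± 2.27 CPM in control cells, and COL4A6 18.1 ± 1.56 CPM in knockout and 28.9 ± 1.84 CPM in control cells (SD, n = 3 each). Their log2 fold changes were -0.47 (SE 0.06) and -0.68 (SE 0.10), and no group overlapped. COL4A4, a scarce chain with 18 counts over the knockout libraries and 69 over the control libraries, had a value of -1.62 (SE 0.50, adjusted p = 0.00708, edgeR). That call was lost without knockout replicate 2 (-1.07, adjusted p = 0.0797) and without control replicate 2 (-1.39, adjusted p = 0.0516), and the value was -2.63 without knockout replicate 3. COL4A4 also passed the filter on low counts only because of its control libraries, which favours a lower call.

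COL7A1, whose protein forms the anchoring fibrils of skin, was at 96.7, 107 and 106 CPM in knockout libraries and 112, 121 and 111 CPM in control libraries. The step was small (log2 fold change -0.15, SE 0.06, adjusted p = 0.0219, edgeR), and it did not pass with DESeq2 (adjusted p = 0.05004), without knockout replicate 1 (-0.11, adjusted p = 0.149) or without control replicate 2 (-0.11, adjusted p = 0.173). COL18A1, the source of endostatin, had 50.7, 54.4 and 43.0 CPM in knockout and 51.2, 49.6 and 49.2 CPM in control libraries, with overlapping groups (-0.02, SE 0.08, adjusted p = 0.880). COL8A2, COL10A1 and COL15A1, each averaging under 5 CPM in both groups, did not pass either, with values of -0.51, -0.11 and 0.32. COL15A1 was at 1.12 without control replicate 1 (adjusted p = 0.0632, edgeR).

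Of 5 tested beaded-filament, fibril-associated and transmembrane collagens, 4 fell and 1 rose, beside 25.8% lower and 24.6% higher of all genes. COL16A1, a fibril-associated collagen that keratinocytes make, had 14.2, 14.9 and 14.9 CPM in knockout libraries and 29.1, 28.9 and 26.6 CPM in control libraries. It changed by -0.95 (SE 0.10, adjusted p = 3.00e-10, edgeR). COL12A1, a fibril-associated collagen and the most abundant collagen gene here by CPM, had 209.6, 232 and 235 CPM in knockout libraries and 274, 255 and 258 CPM in control libraries, a small fall of 0.22 on the log2 scale (SE 0.05). COL6A1 and COL9A3, both averaging under 5 CPM in each group, changed by -0.87 and -0.66.

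COL13A1, a transmembrane collagen of adhesion sites, went the other way, though it passed the filter on low counts only because of its knockout libraries, which favours a higher call. It had 6.40, 5.92 and 3.59 CPM in knockout libraries and 2.09, 1.16 and 0.568 CPM in control libraries, a 4.12-fold rise (log2 2.04, SE 0.33, adjusted p = 1.08e-05, edgeR). COL6A6, COL9A2 and COL11A2 were below the filter, with 24 to 45 counts in all.

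The laminin chains did not move together. LAMB1, the beta chain of several laminins, had 18.8, 21.6 and 19.9 CPM in knockout libraries, against 79.2, 73.0 and 79.2 CPM in control libraries. That is 3.82-fold lower (log2 -1.93, SE 0.08, adjusted p = 8.92e-22, edgeR). LAMB2, the alternative beta chain, had 37.5, 41.5 and 39.8 CPM in knockout and 73.8, 81.2 and 74.4 CPM in control libraries (log2 -0.95, SE 0.07). For both beta chains the knockout libraries all lay below the control libraries.

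LAMA5, the alpha chain of laminin-511, had 87.5, 97.0 and 114 CPM in knockout and 126, 155 and 162 CPM in control libraries, with no overlap. It changed by -0.57 (SE 0.15, adjusted p = 0.0305, edgeR) and did not pass without knockout replicate 2 (-0.55, adjusted p = 0.108) or without control replicate 2 (-0.53, adjusted p = 0.0922). LAMC1, the gamma chain that all of these laminins share, had 515, 540.2 and 527 CPM in knockout and 528, 529 and 541 CPM in control libraries, with overlapping groups (log2 fold change -0.01, SE 0.04, adjusted p = 0.814). LAMA1 did not pass at about 1 CPM (-0.38), and LAMA4, with 42 counts in all, was not tested.

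Per kilobase of annotated exon, LAMC1 stood at 62.8 CPM in knockout and 63.4 CPM in control cells, LAMB1 at 2.47 in knockout and 9.48 in control, LAMB2 at 5.77 in knockout and 11.1 in control, and LAMA5 at 6.97 in knockout and 10.3 in control. The gamma chain was thus above each partner chain in both groups, also with the length of the longest coding transcript. In control cells LAMA5, LAMB1 and LAMB2 lay close together on that scale, and in knockout cells LAMB1 was the lowest of the 3.

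LAMA3 and LAMB3, which encode chains of laminin-332, the anchoring laminin of keratinocytes, moved the other way. LAMA3 averaged 1518 ± 79.6 CPM in knockout and 506 ± 30.4 CPM in control cells, and LAMB3 714 ± 39.0 CPM in knockout and 456 ± 18.4 CPM in control cells (SD, n = 3 each). Within each library the log2 ratio of LAMB3 over LAMB1 counts was 5.15 ± 0.03 in knockout and 2.56 ± 0.12 in control cells, a difference of 2.58. The same difference was 2.15 for LAMA3 over LAMA5. Neither ratio overlapped between groups (exact two-sided permutation p = 0.1 each, adjusted p = 0.1, the smallest value that 3 against 3 allows), and these pairs were chosen after the values were seen.

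**Figure D3:**
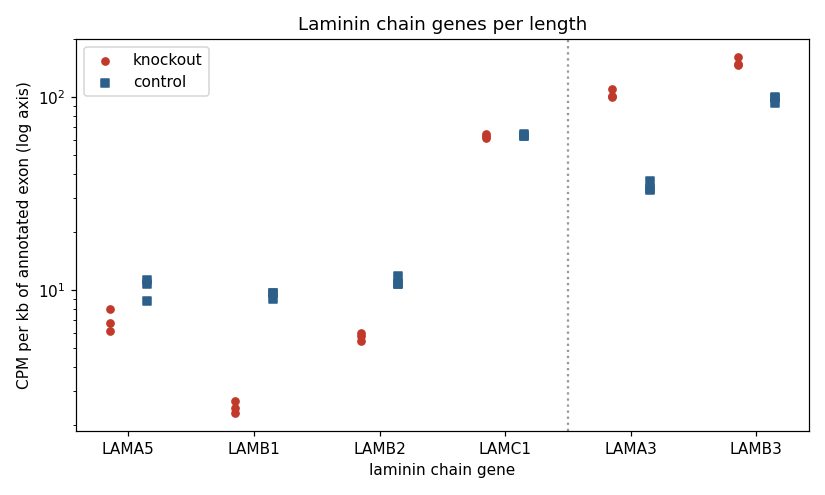
CPM per kilobase of annotated exon (log axis) of laminin chain genes in each knockout and control library, with LAMA5, LAMB1, LAMB2 and LAMC1 left of the dotted line and LAMA3 and LAMB3 right of it. LAMA5, LAMB1 and LAMB2 are lower in knockout, LAMC1 overlaps, and LAMA3 and LAMB3 are higher in knockout.

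Genes whose proteins link the laminin and collagen sheets, or tie them to cells, fell in 6 of 7 tested cases and rose in 0. FREM2, among the 6, passed the filter on low counts only because of its control libraries, which favours a lower call. The shares of all genes were 25.8% lower and 24.6% higher. HMCN1, which encodes hemicentin-1, a giant immunoglobulin-domain protein of cell-matrix junctions, had 36, 44 and 43 counts in knockout libraries and 1136, 1521 and 1019 in control libraries. It was 24.7-fold lower (SE 0.11 on the log2 scale, adjusted p = 2.47e-29, edgeR). NID1 and NID2, the nidogens that bridge laminin and collagen IV, changed by -2.02 (SE 0.24) and -0.88 (SE 0.19); NID1 had 1.82, 1.97 and 1.14 CPM in knockout and 5.83, 7.75 and 6.49 CPM in control libraries, and NID2 had 5.01, 3.49 and 4.46 CPM in knockout and 8.78, 7.35 and 7.63 CPM in control libraries. Nidogen groups did not overlap.

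FRAS1 and FREM2 encode partners in the complex that holds epidermis to dermis in the embryo and is altered in Fraser syndrome. FRAS1 had 1.04, 2.05 and 1.92 CPM in knockout and 4.61, 6.13 and 6.25 CPM in control libraries (log2 -1.75, SE 0.26, adjusted p = 7.80e-07, edgeR). FREM2 had 0 counts in each knockout library and 14, 43 and 16 in control libraries, so it was at least 20.2-fold lower, with 3 counts over the knockout group as the floor. HSPG2, which encodes perlecan, had 16.8, 20.5 and 21.3 CPM in knockout and 23.5, 26.0 and 29.6 CPM in control libraries (-0.43, SE 0.10), also apart.

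AGRN, which encodes agrin, was the abundant exception, with 167, 173 and 166 CPM in knockout and 140.5, 163 and 170.4 CPM in control libraries. Its groups overlapped, and its log2 fold change of 0.10 (SE 0.06, adjusted p = 0.165, edgeR) passed only without control replicate 3 (0.15, adjusted p = 0.0444). NPNT, which encodes the integrin ligand nephronectin, had 5 counts over the knockout and 29 over the control libraries and was not tested.

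Microfibril and adhesive glycoproteins split, with 3 genes lower and 3 higher of 6 tested, beside 25.8% lower and 24.6% higher of all genes. FBN2, the fibrillin of developing microfibrils, had 11.5, 12.9 and 11.3 CPM in knockout libraries, against 66.2, 73.5 and 67.9 CPM in control libraries. It was 5.80-fold lower (log2 -2.54, SE 0.09, adjusted p = 6.64e-24, edgeR). FBN1, the main fibrillin of adult tissue, was scarcer and fell less, with 2.77, 3.65 and 4.11 CPM in knockout and 8.06, 6.77 and 7.71 CPM in control libraries (-1.09, SE 0.20). FBLN1, a basement membrane and elastic fibre glycoprotein, had 10.4, 10.5 and 10.2 CPM in knockout and 19.1, 18.2 and 20.6 CPM in control libraries (-0.89, SE 0.12). All 3 were apart in every library.

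THBS1, which encodes thrombospondin-1, an adhesive glycoprotein that activates latent TGF-beta, was the most abundant of the 48 genes by CPM in both groups. It had 2355, 2611 and 2629 CPM in knockout libraries and 1262, 962 and 979 CPM in control libraries, a 2.37-fold rise (log2 1.25, SE 0.13, adjusted p = 0.00148, edgeR). Control replicate 1 stood above the other control libraries and still far below the knockout. ECM1, an epidermal glycoprotein altered in lipoid proteinosis, had 17.7, 19.8 and 15.1 CPM in knockout and 3.38, 4.22 and 4.63 CPM in control libraries, 4.31-fold higher (log2 2.11, SE 0.15, adjusted p = 3.26e-14). TGFBI, a TGF-beta-induced integrin ligand, had 702, 713 and 679 CPM in knockout and 612, 604 and 605 CPM in control libraries, a small rise of 0.20 (SE 0.04).

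Of the lysyl oxidases, LOXL2 and LOXL1 fell. LOXL2 had 12.9, 14.7 and 16.4 CPM in knockout and 26.4, 24.2 and 20.6 CPM in control libraries (-0.70, SE 0.11, adjusted p = 2.10e-06, edgeR). LOXL1 had 9.42, 11.2 and 8.92 CPM in knockout and 14.97, 12.6 and 12.7 CPM in control libraries (-0.44, SE 0.13), and neither gene's groups overlapped. LOX, the founding member, was near 2 CPM in both groups and did not pass (0.32, SE 0.33). LOXL4 had 16 counts over the knockout and 44 over the control libraries and was not tested.

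Paired chains and paralogs were also compared with each other. Because a ratio of 2 genes in 1 library does not depend on library scaling, log2 ratios were compared for the 7 pairs, of 13 listed, in which both genes had at least 10 counts in every library. COL4A2 over COL4A1 was 1.25, 1.31 and 1.20 in knockout and 0.79, 0.89 and 0.94 in control libraries, a difference of 0.38. LAMB2 over LAMB1 was 0.99, 0.94 and 1.00 in knockout and -0.10, 0.15 and -0.09 in control libraries, so counts of the pair were near equal in control cells and LAMB2 was in excess in knockout cells. LAMC1 over LAMB1 averaged 4.71 ± 0.07 in knockout and 2.79 ± 0.06 in control cells.

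NID2 over NID1 averaged 1.40 ± 0.56 in knockout and 0.25 ± 0.33 in control cells, FBN2 over FBN1 1.77 ± 0.30 in knockout and 3.20 ± 0.21 in control, and LOXL2 over LOX 2.81 ± 0.05 in knockout and 3.85 ± 0.25 in control (SD, n = 3 each). In 6 of the 7 pairs the groups did not overlap, with an exact two-sided permutation p of 0.1 for each, the smallest that 3 against 3 libraries allows, and an adjusted p of 0.117 over the 7, so no pair passed 0.05. Of all single genes tested, 56.5% had groups that did not overlap; the share among other gene pairs was not computed. COL4A6 over COL4A5, at -2.19 ± 0.15 in knockout and -1.99 ± 0.12 in control cells, overlapped (difference -0.20, exact permutation p = 0.2).

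**Figure D4:**
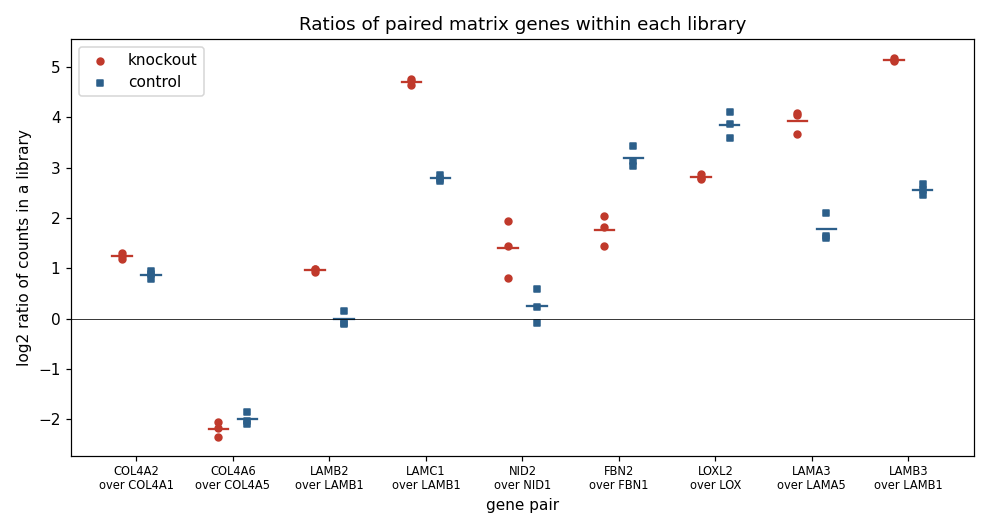
Log2 ratio of the counts of paired genes within each library, knockout (circles) left of control (squares), with a bar at each mean. The ratios overlap for COL4A6 over COL4A5 and are apart for the other 8 pairs, which include LAMA3 over LAMA5 and LAMB3 over LAMB1 at the right.

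Each matrix gene was set beside the median log2 fold change of the other tested genes (log2 CPM of 2 or more on average) within 5 Mb. The 27 lowered genes lay on 16 chromosomes, their neighbours' medians ran from -0.19 to 0.17, and 21 of these medians were above 0. All 27 had a lower value than their neighbours' median, which their being called lower favours. The lowest medians beside lowered genes were -0.19 for COL4A1 and COL4A2, -0.18 for NID1, -0.11 for HSPG2 and -0.10 for HMCN1. Within 10 Mb the median was -0.30 beside HMCN1 and -0.24 beside NID1, and the part of these neighbourhoods in their falls was not tested. ECM1 rose beside neighbours with a median of -0.34, and LAMC1, which did not pass, lay beside neighbours at -0.28. COL13A1 rose beside neighbours at -0.199.

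**Figure D5:**
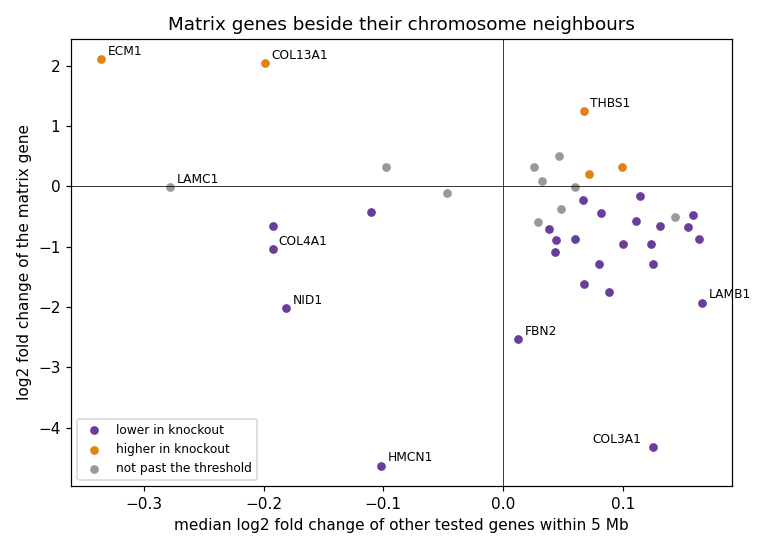
Log2 fold change of each tested matrix gene except FREM2 (y axis) against the median log2 fold change of the other tested genes within 5 Mb (x axis). Most lowered genes lie right of 0 on the x axis, and ECM1 and COL13A1 are high on the left.

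Genes that serve the matrix moved in both directions. Of 18 tested genes of collagen folding, modification and export, 7 rose, 7 fell and 4 did not pass (median 0.06), beside 24.6% higher and 25.8% lower of all genes. PLOD2, a lysyl hydroxylase that sets collagen cross-links, had 35.1, 29.8 and 29.5 CPM in knockout and 77.2, 77.1 and 73.2 CPM in control libraries (log2 -1.27, SE 0.07, adjusted p = 5.28e-17, edgeR). SERPINH1, the collagen chaperone HSP47, changed by -0.43 and KLHL12, a ubiquitin ligase adaptor for procollagen export, by -0.54, beside neighbours at -0.24 on chromosome 1. P3H2, a prolyl 3-hydroxylase that acts on collagen IV, rose by 0.41 (SE 0.05). Of procollagen processing enzymes only FURIN (0.22, higher) and BMP1 (-0.18, lower) had enough counts of 11 listed.

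Of 21 tested matrix receptors, 13 were higher, 4 lower and 4 did not pass (median 0.33), beside 24.6% higher and 25.8% lower of all genes. ITGA5, the alpha chain of the fibronectin receptor, had 80.9, 83.1 and 86.1 CPM in knockout and 41.7, 41.3 and 37.3 CPM in control libraries (log2 1.05, SE 0.07, adjusted p = 6.68e-16, edgeR). CD44, the hyaluronan receptor, rose by 0.94, ITGB4, the beta chain of the hemidesmosome integrin, by 0.76, and ITGA3, the alpha chain of a laminin-332 receptor, by 0.65. LAMA3 rose by 1.59 (SE 0.05), LAMB3 by 0.65 (SE 0.05) and COL17A1, the hemidesmosome collagen, by 0.41 (SE 0.05).

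Of 20 other matrix genes tested, 4 rose, 7 fell and 9 did not pass (median 0.08), beside 24.6% higher and 25.8% lower of all genes. Falls of at least 2-fold numbered 3 and rises of that size 1, beside 5.23% and 1.91% of all genes. FN1, which encodes fibronectin, had 328, 359.8 and 337 CPM in knockout and 183, 170.5 and 155 CPM in control libraries (log2 1.01, SE 0.05, adjusted p = 9.91e-17, edgeR). TNC, which encodes tenascin-C, had 39.9, 48.8 and 49.2 CPM in knockout and 129.5, 129 and 117 CPM in control libraries (-1.45, SE 0.07). SPARC, a collagen-binding matricellular protein, fell by 1.65 (SE 0.12) and MATN2, a filament-forming matrilin, by 1.16 (SE 0.06). In each of these 4 the groups were apart.

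Some exons overlap those of a second counted gene, and no source used here gives the strand setting of the counting, so reads there may have been split or shared. RTRAF, on the other strand, covers 30.0% of the annotated exon bases of NID2, and SLC19A1 16.4% of those of COL18A1. RTRAF rose by 0.28 and SLC19A1 by 0.68 on the log2 scale, and their part in the values of NID2 and COL18A1 was not tested. ADRM1 covers 1.71% of the exon bases of LAMA5 and DLD 0.860% of those of LAMB1. ENTPD4, on the same strand as LOXL2, covers 2.10% of the exon bases of LOXL2. It had 4379 counts in all against 1569 for LOXL2, and its part in the fall of LOXL2 was not tested.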

How the data were processed

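Raw counts of reads per gene for 6 libraries of stranded total RNA were deposited in 1 table by the authors. The submitters' processing notes name the build GRCh38; no source used here gives the aligner, the counter or the strand setting. Of its 46287 rows, 16383 had a count. Replicates of a group were not duplicates (chi-square of their counts over degrees of freedom, 2.65 to 4.49).

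Genes were filtered with filterByExpr (minimum count 10, minimum total 15), scaled by TMM and compared (knockout over control) in the quasi-likelihood test, robust option, of edgeR 4.0.16 in R 4.3.3 over all 6 libraries with no block; Benjamini-Hochberg adjustment ran over all 12293 genes tested, with a threshold of 0.05, and the script was tested on simulated data. Fold changes use a prior count of 0.125, and each SE is the size of the log2 change divided by the root of its F statistic. Pair ratios used counts plus 0.5. Alternatives were DESeq2 1.42.0, limma 3.58.1 (voom), other scalings and filters, the replicate block and leaving out each library. Positions and exon lengths came from GENCODE release 29 (GRCh38), and promoters from RefSeq (GRCh38.p14).

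The 28 genes with at least 5 CPM in either group are described one by one, the rest by counts, range or name; from each list of partner genes, at most 4 with the smallest adjusted p. Genes and lists were chosen with earlier results of these data known. DNA and protein levels were not analysed here. Some genes of the partner and marker lists are not reported here.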

Additional observations from a re-analysis of the deposited data

How the results depend on the processing

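The count of 32 changed matrix genes was 31 with DESeq2, 33 with no filter and 32 with limma-voom, RLE or upper-quartile scaling and a filter asking 1 CPM in 3 libraries; leaving out 1 library gave 29 to 34 (4 to 7 higher, 24 to 28 lower). Of the 42 tested genes, 36 gave the same call in each of these fits that tested them (COL8A2 was not tested under the CPM filter), 0 calls reversed, and 6 crossed the threshold in at least 1: COL7A1, COL27A1, LAMA5, COL4A4, AGRN and COL5A3. Among genes that did not pass, the sign of the value changed in at least 1 fit for COL10A1, COL18A1 and LAMC1. Deviations of knockout and control libraries with the same number had correlations near 0 (0.0450, -0.0596 and -0.0275). Libraries of unlike number were not compared, and whether the numbers mark a shared batch was not tested. Under a replicate block 32 of 42 matrix genes and 48 of 65 partner genes passed, the same counts as without it. Over all genes, 6425 passed with the block and 6197 without it. With 1 library left out, 41 to 47 partner genes passed, of 65 to 69 tested, and 5338 to 6074 of all genes passed. SDR42E1 had log2 fold changes of -1.22 to -1.12. Groups were apart in 6 to 7 of the 7 gene pairs with 1 library left out. With a window of 10 Mb in place of 5 Mb, 4 genes in place of 2 had neighbours with a median of -0.2 or less, HMCN1 and NID1, both lowered, joining ECM1 and LAMC1. The lengths of the longest coding transcripts, an alternative chosen after seeing the data, raise per-kilobase levels, for COL4A2 in control cells to 35.3 from 11.9. Genes of a few counts per library, such as COL3A1 and COL4A4, are the least certain.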
